A study of Mus musculus with 8 samples.

Results

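Keratins, the intermediate filament proteins of epithelial cells, were examined in paw tissue of C57BL/6J mice. The members were all rows of the count files whose symbol was Krt followed by a number and at most 1 letter, which gave 51 of 22609 genes. Keratin-associated protein genes (Krtap) were not included. The 8 libraries are 4 male and 4 female, and all are labelled as treated with 0.1 µg PRL (prolactin, a pituitary hormone that drives milk production), injected into the sole daily for 12 days. The labels name no transgene and no age, and do not say whether each library came from its own animal, so p-values measure the spread between these libraries. No untreated paw was analysed here, so every value describes the prolactin-treated tissue, and the groups differ in sex. The series concerns sex and lasting pain, and the question the design poses is which transcripts of the treated paw differ between the sexes. Male libraries 1 to 4 and female libraries 1 to 4 are named by the replicate numbers in the labels. Counts in genes ran from 16753528 to 24993744 per library, and levels are given in CPM, counts scaled to a common library size with TMM factors.

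Keratins are obligate heteropolymers: each filament pairs a type I with a type II keratin. Basal keratinocytes of the epidermis make Krt5 and Krt14, and cells that leave the basal layer switch to Krt1 and Krt10. In mice Krt2 is added in the epidermis of ear, tail and sole, and Krt9 marks the skin of palms and soles. Krt6a, Krt6b, Krt16 and Krt17 are made in wounded or mechanically stressed epidermis, in footpad skin and in hair follicles. Krt8, Krt18 and Krt19 belong to simple epithelia such as glands, and further sets build the inner root sheath and the shaft of the hair.

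Markers of the labelled tissue were present. The 24 keratinocyte markers that are no keratins summed to between 24125 and 36995 CPM per library, and the 7 fibroblast markers to between 7232 and 17207 CPM. Muscle transcript varied most of the marker lists. The 20 fast skeletal muscle genes summed to 54.4 CPM in female 3 and 34726 CPM in male 2, with 1165 to 25734 CPM in the other 6 libraries. The 12 hair follicle markers that are no keratins were at their lowest in male 2 (370.8 CPM) and at their highest in female 3 (983.4 CPM). Fold changes without these 2 libraries, an alternative added after seeing the data, are therefore given for each keratin group. Of the 51 keratins, 26 were lowest in male 2 and 28 were highest in female 3. Leaving out the lowest male and the highest female of a gene lowers its female over male value by construction. A downward shift in these fits is therefore not a result, and their SE does not count the choice of libraries. In bulk tissue, fewer cells of a type and less RNA per cell cannot be told apart.

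Keratins made up 6.32 to 9.83% of all counts in genes. Krt2, Krt10 and Krt1 were the 3 most abundant of all 22609 genes by mean CPM, and they held 84.3 to 90.1% of the keratin CPM of each library. The 6 suprabasal keratins together held 88.9 ± 1.22% of it in males and 85.8 ± 0.785% in females (SD, n = 4 each), with no overlap. Their summed CPM did overlap, at 67201 to 87290 in males and 53592 to 78056 in females. The palmoplantar share, which is Krt9 alone, and the mucosal and corneal share did not overlap either. The latter is nearly all Krt24, with a mean of 3362 of the 3364 CPM of that group. Shares of a whole are not independent. The 3 basal keratins held 4.61 to 5.5% of the keratin CPM. Per kilobase of transcript, which is the scale on which genes can be compared, Krt10 led with a mean of 13922 CPM per kb, followed by Krt2 (12405) and Krt1 (4209). Krt24 (1820), Krt14 (1296), Krt5 (807) and Krt9 (579) came next, and Krt79 was the last above 200 CPM per kb, at 201.8. Krt10 and Krt2 overlapped in their ranges across libraries. Within libraries, Krt10 counts over Krt2 counts were 0.961 to 1.02 in males and 0.77 to 0.811 in females. With transcripts of 2094 and 2613 bases, Krt10 led per kilobase in every male library, and they were near equal in females. Of the 51 keratins, 41 had a mean of at least 2 CPM and 47 passed the filter on low counts. The 4 that did not were Krt4, Krt13, Krt20 and Krt76, keratins of mucosa and gut, with 0 to 21 counts in any library.

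**Figure D1:**
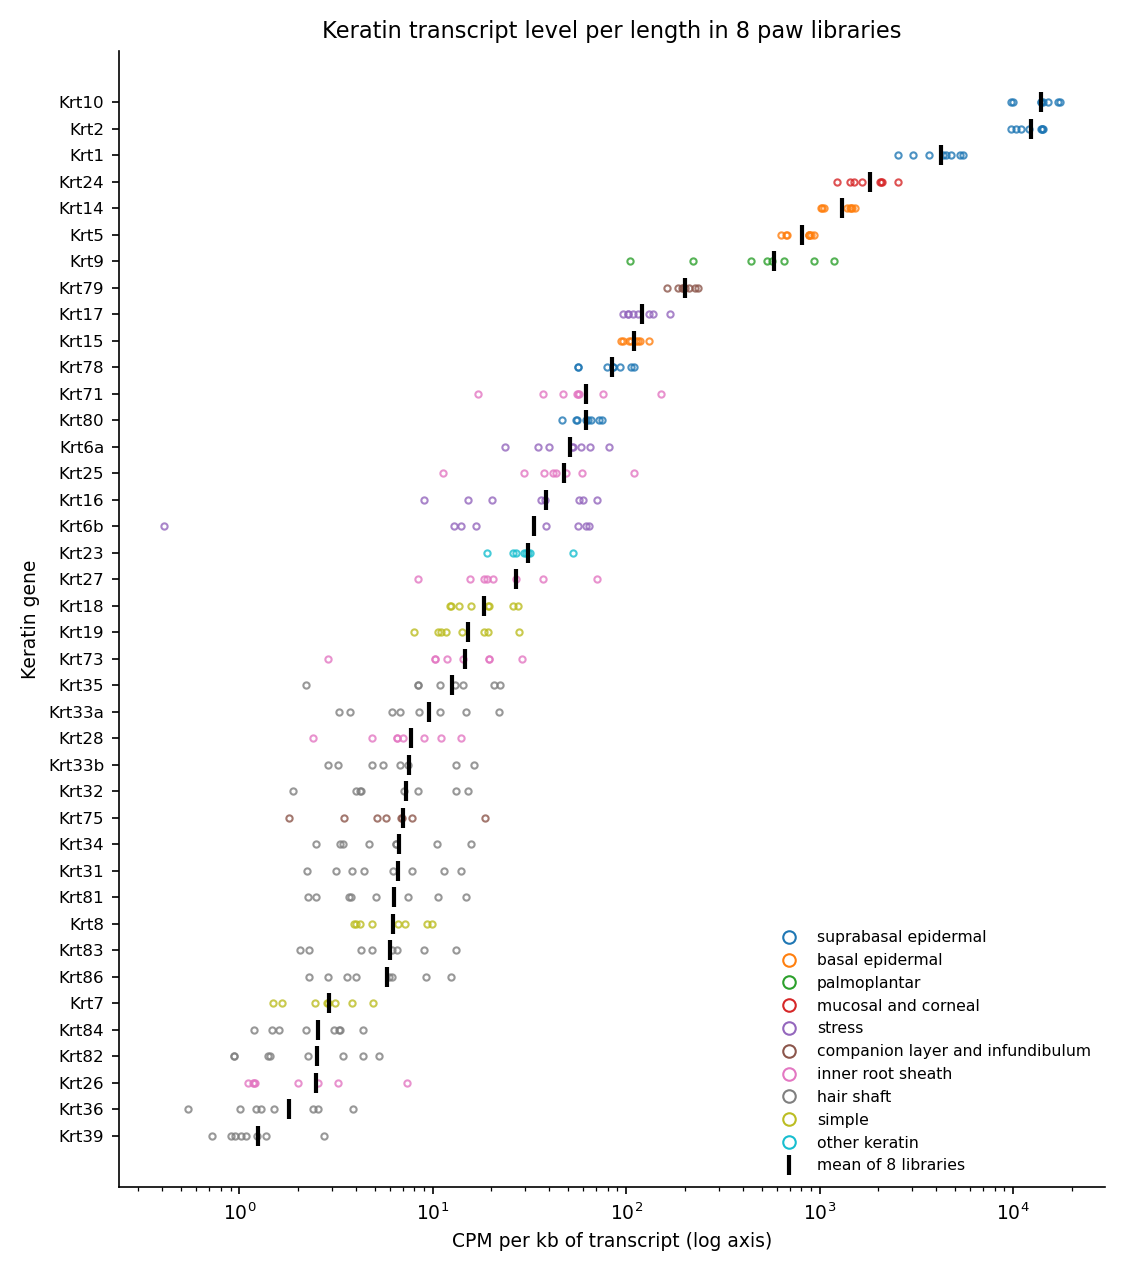
Level of each keratin per kilobase of transcript on a log axis, for the 40 keratins with a mean of at least 2 CPM and a transcript in the reference. Circles are the 8 libraries, coloured by keratin group, and bars are their means. Krt10, Krt2 and Krt1 lie at 4209 to 13922 CPM per kb. The inner root sheath, hair shaft and simple keratins have means below 65 CPM per kb.

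Between the sexes, no keratin passed the test. Of the 47 keratins tested, edgeR's quasi-likelihood test called 0 in either direction at an adjusted p under 0.05, where it called 0.0947% of all 14790 tested genes. DESeq2 and limma-voom also called 0 keratins, against 0.757% and 0.108% of all genes. An unadjusted p under 0.05 was reached by 6 keratins (Krt7, Krt42, Krt12, Krt78, Krt23 and Krt10), or 6 of 47 against 6.53% of all genes. Groups without overlap were seen for Krt7 and Krt12, or 2 of 47 against 4.73% of all genes. The smallest adjusted p among keratins was 0.637. The median log2 fold change, female over male, was 0.24 over the keratins and 0.01 over all tested genes, with 29 of 47 keratins above 0 against 52.7% of all genes. Without male 2 and female 3 the keratin median was -0.46, with 6 of 47 above 0 and 0 called, where 0.0606% of all genes were called. Both those libraries set the direction of the median, since it was -0.04 without male 2 and -0.22 without female 3.

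**Figure D2:**
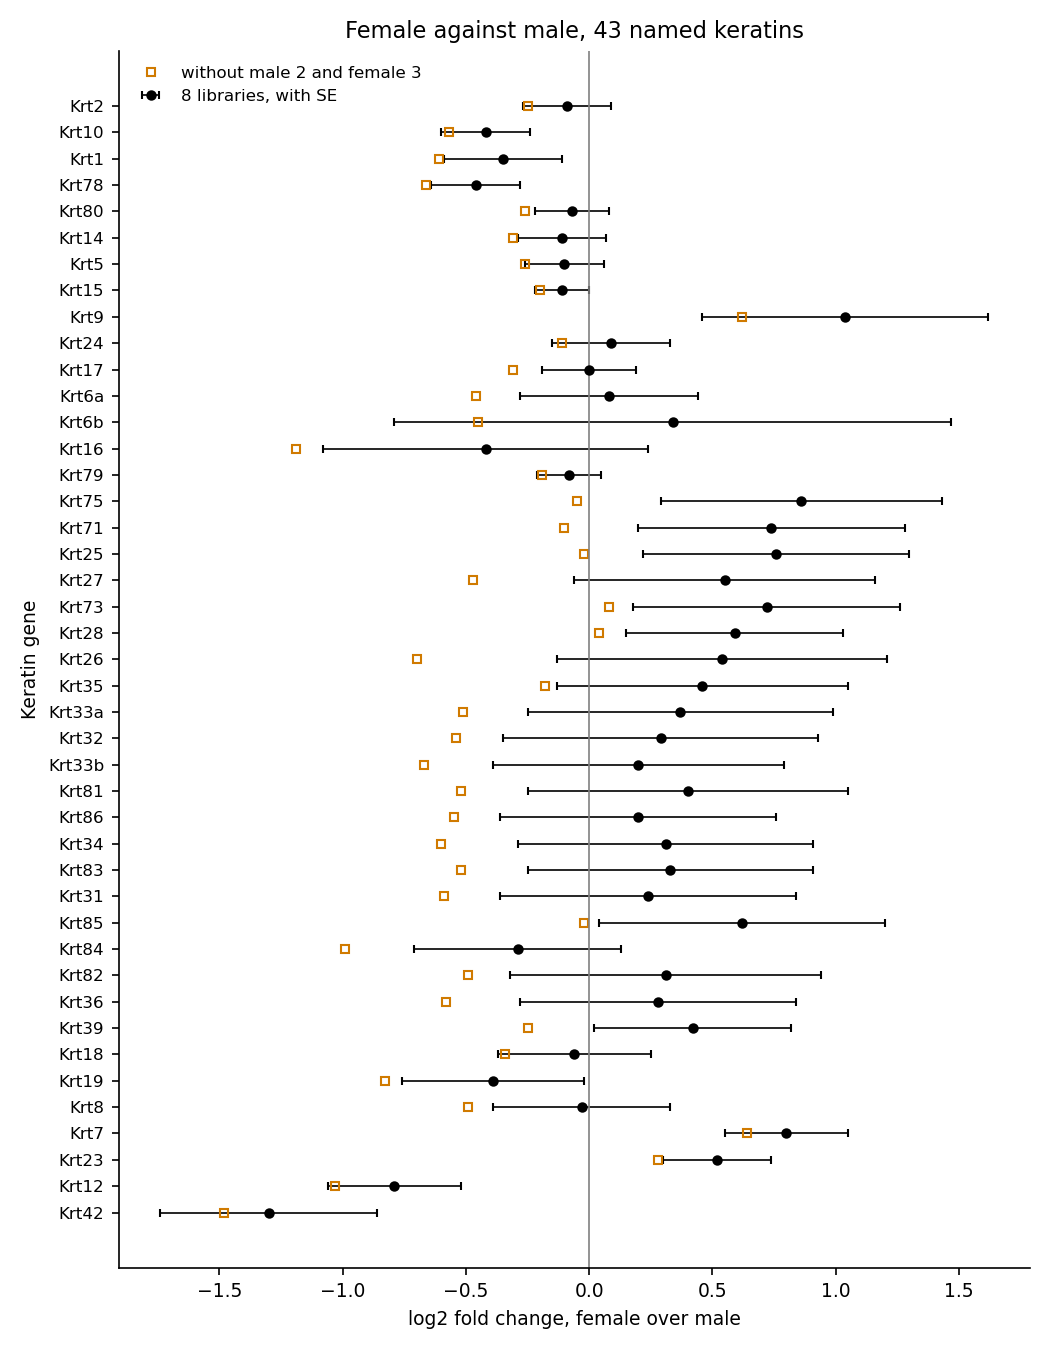
Log2 fold change, female over male, for the 43 keratins named individually. Black points are the fit on 8 libraries with the standard error, and open squares the fit without male 2 and female 3. For 21 of the 43 keratins, most of them hair keratins, the square lies on the other side of 0.

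The suprabasal keratins carried the most transcript, and in females Krt10 and Krt78 had less of it relative to Krt2. Krt10, the type I partner of Krt1, stood at 35847, 29195, 31768 and 36472 CPM in males 1 to 4 and at 20358, 29655, 29087 and 20833 CPM in females 1 to 4. All females but female 2 lay below the lowest male. The log2 fold change was -0.42 (SE 0.18, edgeR adjusted p = 0.753). Krt78, a type II keratin of differentiating epidermis, stood at 365, 274, 320 and 378 CPM in males 1 to 4 and at 193, 293, 292 and 194 CPM in females 1 to 4. Females 1 and 4 were the lowest, as they were for Krt10. The means were 334 ± 47.5 and 243 ± 57.3 CPM (SD, n = 4 each), with a log2 difference of -0.46 (SE 0.18) at an edgeR adjusted p = 0.734. Krt2 differed less, at 33418 ± 4087 against 31413 ± 6028 CPM (-0.09, SE 0.18, adjusted p = 0.999). Krt1, the type II partner of Krt10, stood at 11565 ± 2142 against 9099 ± 2683 CPM (-0.35, SE 0.24, adjusted p = 0.915). Krt80, found at desmosomes of differentiated cells, had -0.07 (SE 0.15). Krt77 was low, at 0.617 to 3 CPM, and was the only suprabasal keratin above 0 (0.42, SE 0.50). Without male 2 and female 3, the other 5 had log2 fold changes from -0.66 for Krt78 to -0.25 for Krt2, with 0 called.

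A ratio within a library does not depend on how libraries are scaled, and here it parted the sexes. The counts of Krt10 divided by those of Krt2 were 0.961, 1.02, 1.01 and 1.01 in males 1 to 4. They were 0.802, 0.811, 0.794 and 0.77 in females 1 to 4. The groups did not overlap, and the spread within a sex was small, with means of 0.999 ± 0.0263 and 0.794 ± 0.0176 (SD, n = 4 each). On the log2 scale the female mean differed from the male mean by -0.33. Krt78 over Krt2 showed the same, by -0.38 on the log2 scale, again with no overlap, whereas Krt10 and Krt78 kept their ratio to each other (96.6 to 107.7 Krt10 counts per Krt78 count, with overlap). Krt14, Krt80 and Krt79 over Krt2 differed by -0.01, 0.01 and 0.02, all with overlap. Larger mean differences in the ratio to Krt2 were also seen with overlap, at -0.27 for Krt1, 0.18 for Krt24 and 1.38 for Krt9, so a shift against Krt2 was not particular to Krt10 and Krt78.

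These ratios were chosen after the values were seen. Among all 91 pairs of the 14 keratins with a mean of at least 100 CPM, 19 had groups that did not overlap, or 20.9%, and 15 of the 19 included Krt10 or Krt78. Among all pairs of the 2247 genes with a mean of at least 100 CPM and no zero count, 6.08% did not overlap. Pairs that share a gene are not independent, so the 2 shares are a description. An exact two-sided permutation test gives any pair without overlap p = 0.0286, the smallest that 4 against 4 libraries allow. For these 19 it therefore repeats the lack of overlap and adds no evidence. After Benjamini-Hochberg adjustment over the 91 pairs it was 0.137, which does not pass. Since p cannot fall lower with so few libraries, nothing is concluded from that. Of the 13 ratios to Krt2, 2 did not overlap between the sexes, against 3.92% of all tested genes. That background also holds genes below 100 CPM, unlike the 13, so the 2 shares are not matched in level. When the mean level of the keratinocyte markers was added to the edgeR model, Krt10 (-0.34, SE 0.05, adjusted p = 0.0345) and Krt78 (-0.37, SE 0.06, adjusted p = 0.0431) were called lower in females. They were the 2 of 47 keratins called by that model, which called 0.669% of all genes. With size factors taken from the keratinocyte markers, an alternative added after seeing the data, neither was called (adjusted p = 0.137 for Krt10 and 0.544 for Krt78, where 0.0879% of all genes were called).

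**Figure D3:**
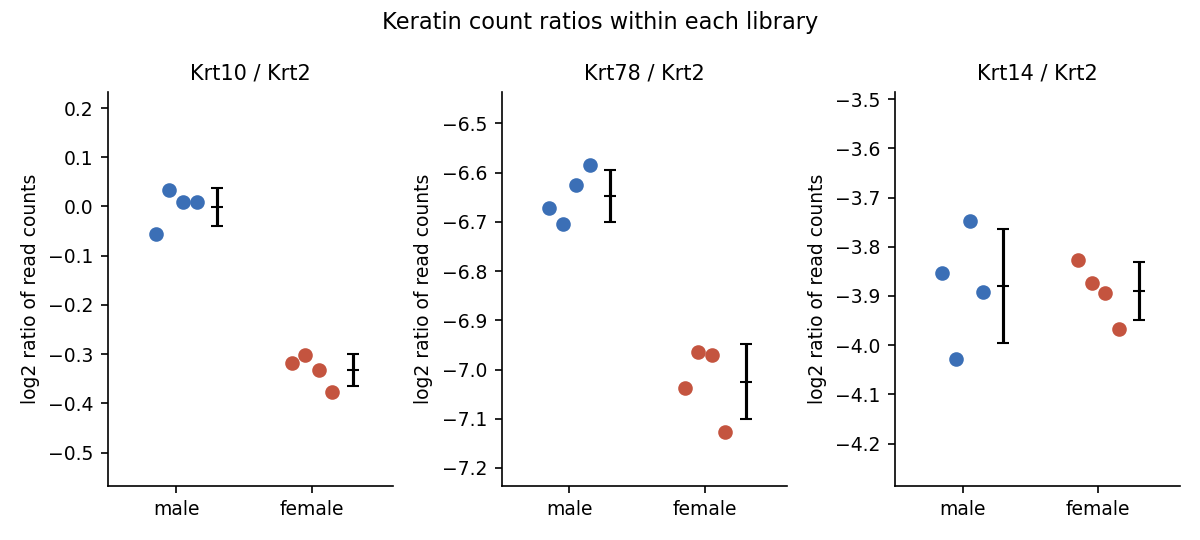
Log2 ratio of the read counts of Krt10, Krt78 and Krt14 to those of Krt2 in each library, on axes of equal span. Points are libraries, with the mean and SD to their right. For Krt10 and Krt78 the 4 female libraries lie below the 4 male libraries, and for Krt14 the sexes overlap.

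The promoters of Krt10 and Krt2 are shown because these keratins are near equal in level and differ in their ratio between the sexes. The RefSeq table (GRCm38.p6, a build other than the mm9 of the counts) holds promoters for 34 of the 51 keratins. The 100 bases before the start are given 5′ to 3′, with the TATA box letters TATAAA in capitals where they lie in the last 50 bases. Krt10 lies at chr11:99389365-99389464 and Krt2 at chr15:101818170-101818269, both on the minus strand.
Krt10: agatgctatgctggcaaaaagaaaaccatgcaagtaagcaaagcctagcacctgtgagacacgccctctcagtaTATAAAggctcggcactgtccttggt
Krt2: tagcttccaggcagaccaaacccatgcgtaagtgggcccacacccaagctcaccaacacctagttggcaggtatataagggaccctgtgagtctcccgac
TATAAA on the gene's strand was found in that window in 15 of 34 keratin genes, or 44.1%, and in 3.15% of the 27025 genes of the table. On the other strand it was found in 0 of the 34 and in 1.29% of all genes. The Krt2 window lacks that exact string but holds the letters tatataag, and variants of the TATA box were not searched.

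Basal keratins had the lowest median spread of the keratin groups. Krt5 and Krt14, which form the filament of dividing keratinocytes, stood at 1386 to 2048 CPM and 1730 to 2578 CPM. Krt15, a basal type I keratin also known from the hair follicle bulge, stood at 159 to 222 CPM. Each of the 3 lay below 0 in log2 fold change by about its SE or less (-0.10 with SE 0.16, -0.11 with SE 0.18 and -0.11 with SE 0.11), and from -0.31 to -0.20 without male 2 and female 3. The SD of log2 CPM over the 8 libraries was 0.23 for Krt5, 0.26 for Krt14 and 0.16 for Krt15, close to the median of 0.215 over all tested genes. Over all keratins that SD exceeded 0.5 for 31 of 47, against 11.2% of all tested genes.

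In 5 of the 6 pairs of filament partners examined, the spread of the ratio was below that of either partner. This was not particular to partners, since Krt2 and Krt14, which are not known as a pair, had a ratio SD of 0.085 and Krt10 and Krt78 one of 0.059. The log2 ratio of Krt5 to Krt14 had an SD of 0.055 over the 8 libraries, while each partner alone had 0.23 and 0.26. For Krt1 and Krt10 the SD of the ratio was 0.15, against 0.40 and 0.32 for the partners. For the inner root sheath pair Krt71 and Krt27 it was 0.213, against 0.885 and 0.893, and for the shaft pair Krt85 and Krt35 it was 0.172, against 0.94 and 1.0. The simple pair Krt8 and Krt18 had 0.312, against 0.521 and 0.45. Krt6a and Krt16 were the exception, with an SD of 0.573 for the ratio, against 0.56 for Krt6a alone and 1.04 for Krt16 alone. Partners share a library, so their ratio removes whatever moved both.

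Krt9, the keratin of palm and sole, differed 11.3-fold between the lowest and the highest library. It stood at 1694, 268.9, 573 and 1368 CPM in males 1 to 4 and at 1466, 3042, 2411 and 1136 CPM in females 1 to 4. Male 2 and male 3 were low, female 2 and female 3 were high, and the sexes overlapped. The log2 fold change was 1.04 (SE 0.58, edgeR adjusted p = 0.841), and it was 0.62 (SE 0.51, adjusted p = 0.744) without male 2 and female 3. As a share of all keratin CPM, Krt9 was 0.363 to 1.71% in males and 1.81 to 3.32% in females, which did not overlap, whereas its count ratio to Krt2 did overlap between the sexes. Krt24, a type I keratin placed in the mucosal and corneal list here, was the fourth most abundant keratin, with 2276 to 4660 CPM (log2 fold change 0.09, SE 0.24, adjusted p = 0.999, and -0.11 without male 2 and female 3). Like Krt9 it was at its lowest in male 2 and at its highest in female 2. Krt12, a corneal keratin, was low, with 14 to 41 counts per library, with means of 1.91 ± 0.223 CPM in males against 1.1 ± 0.354 CPM in females and no overlap (log2 difference -0.79, SE 0.27, adjusted p = 0.668). Of the 1803 windows of 50 bases in its transcript, 758 were shared with another gene.

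Among the stress keratins, Krt6b and Krt16 varied most between libraries, and no member passed between the sexes. Krt6b stood at 144, 0.909, 31.4 and 86 CPM in males 1 to 4 and at 28.8, 126, 138 and 37.2 CPM in females 1 to 4. Male 2, with 17 counts, lay far below the other 7 libraries, which had 489 to 3136. Krt16 stood at 110, 14, 56.9 and 93.2 CPM in males and at 23.9, 59.5, 89.4 and 31.7 CPM in females. Male 2 was again the lowest. The log2 fold changes were 0.34 (SE 1.13, edgeR adjusted p = 0.999) for Krt6b, which was -0.08 without male 2 and -0.03 without female 3, and -0.42 (SE 0.66, adjusted p = 0.999) for Krt16. Krt6a ran from 53.6 CPM in male 2 to 186 CPM in female 3 (0.08, SE 0.36), and Krt17 from 149 CPM in male 2 to 260 CPM in female 3 (-0.00, SE 0.19). Without male 2 and female 3 all 4 lay below 0, at -1.19 (SE 0.40) for Krt16, -0.46 (SE 0.17) for Krt6a, -0.45 (SE 0.74) for Krt6b and -0.31 (SE 0.10) for Krt17. None was called, with 0.627 as the smallest edgeR adjusted p. Krt16 alone was -0.77 without male 2 and -0.84 without female 3. All 4 stress keratins were lowest in male 2, the library with the lowest Krt9 and with the most muscle transcript, and the part of either in these values was not tested.

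**Figure D4:**
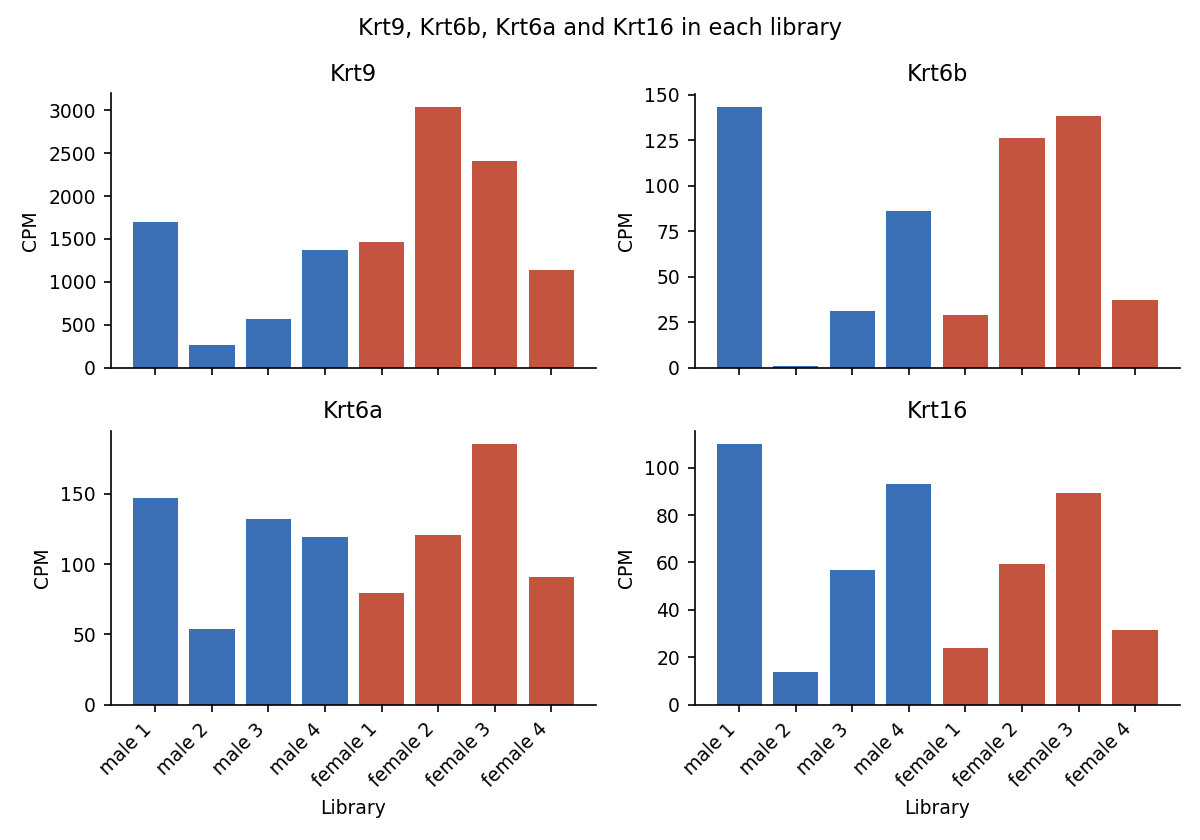
CPM of Krt9, Krt6b, Krt6a and Krt16 in each library, with males in blue and females in red. Krt6b falls to 0.909 CPM in male 2, where Krt6a still stands at 53.6 CPM.

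The counts of Krt6a and Krt6b leave out reads that fit both, since the genes are near copies. Their coding sequences (1659 and 1662 bases in GENCODE M21) were identical in 1622 of 1662 aligned columns, or 97.6%, with an unbroken identical run of 280 bases. Reads were 50 bases long and those placed more than once are listed apart from the genes in the files. Of the 50-base windows of the transcript, 1381 of 2229 in Krt6a (62%) and 1095 of 2186 in Krt6b (50.1%) also occurred in another gene, 972 of them in each other. The 60 bases of the coding sequence where the genes differ most, positions 817 to 876 in each, are shown to let the source of countable reads be seen. Capitals mark the 10 bases that differ.
Krt6a: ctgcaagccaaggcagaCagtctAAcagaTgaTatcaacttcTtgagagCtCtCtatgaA
Krt6b: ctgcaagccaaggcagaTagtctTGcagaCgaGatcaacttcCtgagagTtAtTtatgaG
The ratio of Krt6a to Krt6b counts was 1.02, 58.9, 4.21 and 1.39 in males 1 to 4 and 2.76, 0.954, 1.34 and 2.45 in females 1 to 4. Krt6a was also lowest in male 2, but by far less than Krt6b. Per kilobase of windows found in no other gene, the mean was 137 CPM for Krt6a, 67.9 CPM for Krt6b and 63.2 CPM for Krt16, whose transcript shares 37.6% of its windows with other genes, above all with Gm11597. The hair keratins Krt81 and Krt86 also share 43.5% and 43.3% of their windows, most of them with each other (682 windows).

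Hair follicle keratins varied together, with female 3 high and male 2 low. All 7 inner root sheath keratins (Krt25 to Krt28, Krt71, Krt73 and Krt74), which form the sleeve that moulds the growing hair, were highest in female 3 and lowest in male 2. Summed, they stood at 204.5, 85.6, 405 and 288 CPM in males 1 to 4 and at 287, 312, 763 and 241 CPM in females 1 to 4. The most abundant was Krt71, a type II keratin, at 81.5, 37.3, 165 and 124 CPM in males and 122, 123, 332 and 103 CPM in females. Its log2 fold change was 0.74 (SE 0.54, edgeR adjusted p = 0.922), and -0.10 without male 2 and female 3. Its relatives Krt25 (0.76, SE 0.54) and Krt27 (0.55, SE 0.61) did the same, at -0.02 and -0.47 without the pair, and Krt73, Krt28 and Krt26 had 0.72 (SE 0.54), 0.59 (SE 0.44) and 0.54 (SE 0.67), against 0.08, 0.04 and -0.70 without it. Of the 7, 7 lay above 0 with a median of 0.59, and 0 passed. The companion layer keratin Krt75 had the same lowest and highest libraries, from 5.88 CPM in male 2 to 60.5 CPM in female 3 (0.86, SE 0.57, and -0.05 without both). Krt79, known from the upper follicle and sebaceous duct, did not: it kept between 340 and 495 CPM in all libraries (-0.08, SE 0.13, and -0.19 without the pair).

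Of the 15 hair shaft keratins, the hard keratins that crosslink with keratin-associated proteins, 14 were highest in female 3, and 9 were lowest in male 2 and 5 in female 2. Summed, they stood at 91, 52.7, 232 and 136 CPM in males 1 to 4 and at 151, 83.7, 301 and 97.4 CPM in females 1 to 4, with overlap of the sexes. Krt35, an early type I keratin of the hair matrix and cortex, ran from 3.8 CPM in male 2 to 38.5 CPM in female 3 (log2 fold change 0.46, SE 0.59, edgeR adjusted p = 0.999). Krt33a, of the cortex, ran from 5.54 CPM in female 2 to 37.1 CPM in female 3 (0.37, SE 0.62, adjusted p = 0.999). Krt84, a hard keratin of nail and tongue, was the shaft keratin that lay below 0 among those above 2 CPM (-0.29, SE 0.42). It was -0.79 without female 3 and -0.99 (SE 0.25, edgeR adjusted p = 0.591) without male 2 and female 3. The other members above 2 CPM (Krt31, Krt32, Krt33b, Krt34, Krt36, Krt39, Krt81 to Krt83, Krt85 and Krt86) had log2 fold changes of 0.20 to 0.62 with SE of 0.40 to 0.65, and Krt40, below 2 CPM on average, had -0.22 (SE 0.62). None passed, and 13 of 15 lay above 0 with a median of 0.31. That direction rested on male 2 and female 3. Male 2 was the lowest for 9 of the 15 and female 3 the highest for 14, so leaving both out lowers such values by construction. Without them 14 of the 14 members of at least 2 CPM lay below 0. They ran from -0.99 to -0.02, with a median of -0.53 and 0 called. Krt33a was then -0.51 and Krt35 -0.18. Hair markers that are no keratins moved the same way between these libraries (370.8 CPM in male 2, 983.4 CPM in female 3). The 51 Krtap genes summed to 64.5 CPM in female 2 and 783 CPM in female 3, with 134.7 to 406 CPM in the other 6.

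**Figure D5:**
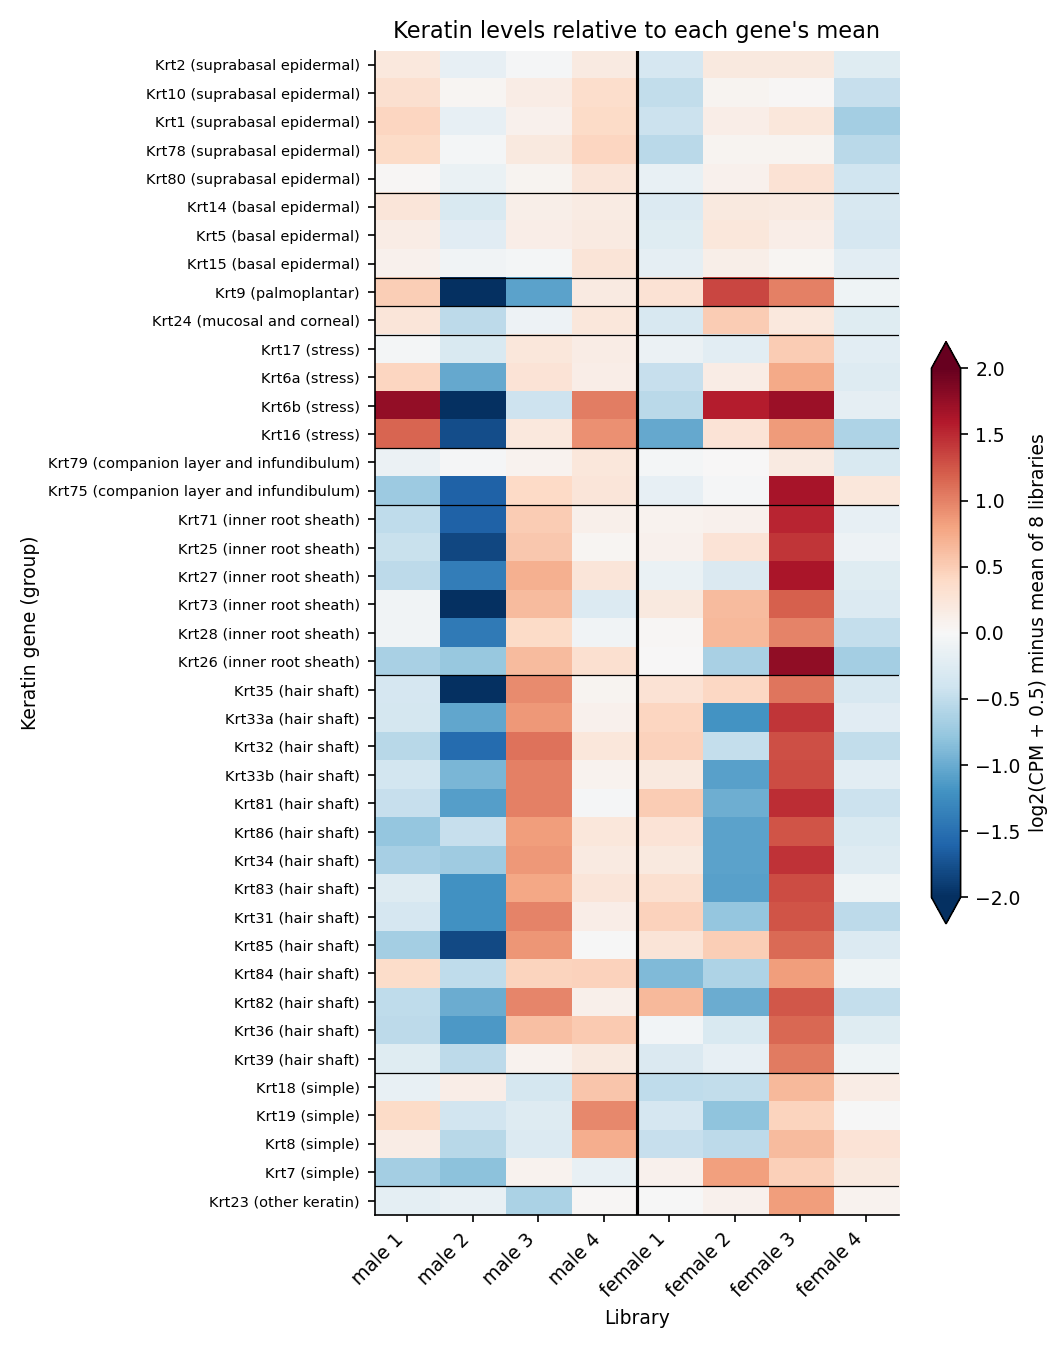
Level of the 41 keratins with a mean of at least 2 CPM in each library, as log2(CPM + 0.5) minus the mean of that gene over the 8 libraries. Colours end at 2 units on either side, and lines separate the groups. The inner root sheath and shaft keratins are highest in female 3, and Krt9, Krt6b and Krt16 are lowest in male 2.

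The promoters of 4 inner root sheath keratins are given because these genes moved together over the libraries. The same 100 bases are shown, with TATAAA in capitals. Krt25 lies at chr11:99322952-99323051, Krt27 at chr11:99351119-99351218, Krt28 at chr11:99374904-99375003 and Krt71 at chr15:101743098-101743197, on the minus strand of GRCm38.p6.
Krt25: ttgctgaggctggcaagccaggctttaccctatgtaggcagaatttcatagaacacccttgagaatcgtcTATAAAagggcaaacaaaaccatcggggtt
Krt27: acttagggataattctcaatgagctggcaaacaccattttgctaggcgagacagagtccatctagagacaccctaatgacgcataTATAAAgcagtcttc
Krt28: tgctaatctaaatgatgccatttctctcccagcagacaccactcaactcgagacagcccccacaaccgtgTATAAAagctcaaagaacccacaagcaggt
Krt71: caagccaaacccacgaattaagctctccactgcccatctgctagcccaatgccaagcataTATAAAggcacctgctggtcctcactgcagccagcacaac
All 6 inner root sheath keratins in the table hold TATAAA in the last 50 bases before the start, as do 5 of 9 shaft keratins. Krt9, Krt5 and Krt14 are among those whose window lacks these exact letters, and variants of the TATA box were not searched. The place in the window was not restricted, and the match began 15 bases before the start in Krt27 and 30 in Krt25. A match of letters describes the window and does not show binding.

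Simple epithelial keratins were low. Krt18 stood at 17.5 to 39.5 CPM, Krt19 at 12.6 to 44 CPM, Krt8 at 7.7 to 19.4 CPM and Krt7 at 6.09 to 20 CPM. Krt7, a type II keratin of glands and ducts, had 6.76, 6.09, 11.7 and 10 CPM in males 1 to 4 and 11.8, 20, 15.6 and 12.8 CPM in females 1 to 4. Every female library lay above every male library, female 1 and male 3 by the least. The log2 fold change was 0.80 (SE 0.25, edgeR adjusted p = 0.637), the smallest p among keratins but not past the threshold. The other 3 tested members did not share it, at -0.06 (SE 0.31) for Krt18, -0.39 (SE 0.37) for Krt19 and -0.03 (SE 0.36) for Krt8. Without male 2 and female 3 the values were -0.34, -0.83 and -0.49, and 0.64 for Krt7, with 0 called. Summed, the simple keratins were high in male 4 (111 CPM) and female 3 (104 CPM) and stood at 55.1 to 77.6 CPM elsewhere. The 5 eccrine sweat gland markers were also highest in male 4 (759 CPM) and female 3 (673 CPM), with 409.9 to 613 CPM elsewhere, and their part in the keratin values was not tested. The 4 Merkel cell markers summed to 2.22 to 5.77 CPM. In both lists, and in that of the hair follicle, 0 markers had 10 counts or fewer over all libraries.

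Of the keratins outside these groups, Krt23, a type I keratin, averaged 39.9 ± 7.34 CPM over males and 57 ± 17.6 CPM over females (SD, n = 4 each). Its log2 fold change was 0.52 (SE 0.22, edgeR adjusted p = 0.750), and 0.27 without female 3, the library where it reached 83.3 CPM. Krt42, a type I keratin, had between 10 and 31 counts per library in males and between 3 and 15 in females (-1.30, SE 0.44, adjusted p = 0.667). Krt222 (0.348 to 1.15 CPM) and Krt74 (0 to 1.15 CPM) were near the lower limit of these libraries.

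Genes that bind, regulate or crosslink keratins did not pass between the sexes either. Of 14 filament partners, the desmosome and cornified envelope proteins that anchor or bundle keratin, 6 lay above 0 and 8 below (median log2 fold change -0.07, 0 called). Lor, which encodes the envelope protein loricrin, averaged 2869 ± 144 CPM over males and 2130 ± 255 CPM over females with no overlap (-0.43, SE 0.12, edgeR adjusted p = 0.510). Of 13 tested regulators of keratin genes, 8 lay above 0 and 5 below (median 0.03, 0 called). Cebpb, a transcription factor of differentiating keratinocytes, had the smallest p, at 50.6 ± 2.43 against 32.4 ± 5.68 CPM with no overlap (-0.64, SE 0.13, edgeR adjusted p = 0.205). Of 6 crosslinking and turnover enzymes, 2 lay above 0 and 4 below (median -0.22, 0 called). Groups did not overlap for 1 of the 14 partners, 2 of the 13 regulators and 0 of the 6 enzymes, against 4.73% of all tested genes. For comparison, 24 keratinocyte markers without keratins had a median of -0.09, with 8 above 0 and 16 below. These markers share genes with the lists above, such as Dsp, Jup and Lor with the filament partners, so the medians are not independent.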

How the data were processed

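Polyadenylated RNA of paw tissue was sequenced in 8 libraries (4 male, 4 female) as single-end reads of 50 bases from a stranded library, per the labels' protocols. Per the submitters' processing notes, TopHat2 and HTSeq were used with mm9. Their versions, the gene models and the strand option of HTSeq were not given in the sources used here. Values are raw read counts per gene symbol, as the authors deposited them. HTSeq's own lines (no feature, ambiguous and not unique) stayed out. The no feature line held 18 to 21.1% of uniquely placed reads. The not unique line held 45.2 to 48.7% of the sum of all lines of a library.

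Female was compared with male in edgeR 4.0.16 (R 4.3.3; filterByExpr, TMM, robust quasi-likelihood test, sex as sole term), with Benjamini-Hochberg adjustment over 14790 genes. The SE was derived from the F statistic. Replicates differed beyond counting noise (chi-square per degree of freedom at least 13.2), so none looked like a repeat of another library, and each was used as a replicate; this does not show that each came from its own animal. Transcript lengths, 50-base windows and coding sequences came from GENCODE M21 (GRCm38), with alignment in Biopython 1.88. The longest protein-coding transcript was used, and Krt74 and Krt85 were not matched. Alternatives were other size factors, DESeq2 1.42.0, limma-voom (limma 3.58.1), other filters, the replicate number as a block, a fit that was not robust, muscle or keratinocyte scores as covariates, and each library left out. Named with values were keratins of at least 2 CPM on average that passed the filter or with an unadjusted p under 0.05, and list genes with the smallest p; Krt40, Krt74, Krt77 and Krt222 are named in addition. The members and lists were chosen with earlier results of these data known. The edgeR step was tested on simulated data.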

Additional observations from a re-analysis of the deposited data

Results flagged for a closer look

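In 106 sets of 4 libraries of the same sex (43 keratins and 10 group sums), 8 had a library standing well apart from the other 3. Chance alone gives this in about 1 of 20 independent sets. These sets are not independent, since the group sums hold the keratins counted singly, so the 8 are not read as an excess. In log2(CPM + 0.5), 6 of the 8 concerned female 3: Krt17 at 8.02 (7.31 to 7.40 in the other females), Krt71 at 8.38 (6.69 to 6.95), Krt27 at 6.78 (4.86 to 5.02), Krt39 at 2.31 (0.98 to 1.18), Krt23 at 6.39 (5.55 to 5.65), and the sum of Krt23, Krt42 and Krt222 at 6.41 (5.57 to 5.70). The other pair concerned male 2, low in Krt5 at 10.54 (10.91 to 10.95 in the other males) and in Krt84 at 2.21 (3.08 to 3.17).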

How the results depend on the processing

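No keratin was called under any alternative except the keratinocyte covariate, where 2 were called, both lower in females (Krt10 and Krt78). Over all genes, 6 were called higher in females and 8 higher in males. With the keratinocyte covariate these counts were 54 and 45, with DESeq2 57 and 55, and without male 2 and female 3 the second was 5. With 1 library left out they ran from 2 to 7 and from 6 to 10. With the replicate block they were 2 and 5, and no keratin was called with it. Same-numbered libraries did not deviate together (correlations of -0.31 to -0.09). Male and female libraries of unlike number reached up to 0.774. Such other variation can hide a pairing, so the check cannot tell whether the numbers mark one.

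Levels moved little with other library sizes. Per kilobase of windows found in no other gene, a scale added after seeing the data, the means were 1558 for Krt14, 940.1 for Krt5, 63.2 for Krt16, 137 for Krt6a and 67.9 for Krt6b.

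Of 900 values for single keratins, 820 kept their direction and side of the threshold, 2 passed it and 78 changed sign, none of them past the threshold; the cause was not tested. Without male 2 and female 3, log2 fold changes changed sign for Krt24 (-0.11), Krt71 (-0.10), Krt6a (-0.46), Krt25 (-0.02), Krt6b (-0.45), Krt27 (-0.47), Krt75 (-0.05), Krt35 (-0.18), Krt33a (-0.51), Krt32 (-0.54), Krt33b (-0.67), Krt81 (-0.52), Krt86 (-0.55), Krt34 (-0.60), Krt83 (-0.52), Krt31 (-0.59), Krt85 (-0.02), Krt26 (-0.70), Krt82 (-0.49), Krt36 (-0.58) and Krt39 (-0.25). With the muscle covariate they did so for Krt24 (-0.01), Krt6a (-0.18), Krt6b (-0.05), Krt33b (-0.15), Krt86 (-0.11), Krt34 (-0.09), Krt31 (-0.05), Krt26 (-0.13) and Krt36 (-0.09). With the keratinocyte covariate Krt17 and Krt8 stood at 0.07 each, and with library size alone Krt17 stood at 0.03. With keratinocyte size factors, which moved the median of all genes to 0.18, values above 0 were reached by Krt2 (0.04), Krt14, Krt5 and Krt15 (0.03 each), Krt79 (0.06), Krt80 (0.05), Krt17 (0.13), Krt18 (0.08) and Krt8 (0.15).

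With 1 library left out, signs changed for 20 keratins, with ranges of -0.09 to 0.20 for Krt24, -0.19 to 0.03 for Krt80, -0.21 to 0.07 for Krt17, -0.22 to 0.23 for Krt6a, -0.08 to 1.07 for Krt6b, -0.18 to 0.92 for Krt27, -0.34 to 0.14 for Krt18, -0.26 to 0.81 for Krt33a, -0.30 to 0.27 for Krt8, -0.22 to 0.88 for Krt32, -0.42 to 0.70 for Krt33b, -0.25 to 0.95 for Krt81, -0.38 to 0.59 for Krt86, -0.38 to 0.75 for Krt34, -0.24 to 0.69 for Krt83, -0.30 to 0.74 for Krt31, -0.48 to 0.85 for Krt26, -0.22 to 0.84 for Krt82, -0.28 to 0.58 for Krt36 and -0.09 to 0.59 for Krt39. Depth limits Krt42, Krt12, Krt222 and Krt74, whose libraries hold few counts.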

Other observations

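Within the hair shaft, female 2 differed from the other libraries in its mix of keratins, a pattern chosen after the values were seen. Krt35 and Krt85, which are switched on early as matrix cells enter the shaft, summed to 34.4 CPM in female 2, within the range of 5.4 to 54.1 CPM over the 8 libraries. The cortex keratins Krt31, Krt33a, Krt33b, Krt34, Krt81, Krt83 and Krt86 summed to 32.1 CPM there, the lowest of all, against 35.1 to 185 CPM elsewhere. The early to cortex ratio was 1.07 in female 2, 0.154 in male 2 and 0.292 to 0.367 in the other 6 libraries. The Krtap genes, made late in the shaft, were also lowest in female 2 (64.5 CPM), while its inner root sheath keratins (312 CPM) lay above the median.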
